A study of Homo sapiens with 2 samples.

Results

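The genes described here are 37 interferon-stimulated effectors and JAK-STAT regulators, taken from the 19052 genes listed in either of the 2 deposited tables by matching each Entrez gene identifier to its symbol. RNA sensors and antigen presentation genes were left out of the set. All 37 were listed in at least 1 table, and MX2, absent from the siCINP table, was taken as 0 there. Of the 37, 31 had 20 or more reads in at least 1 library and were compared, among 13076 such genes in all, and the other 6 are given by their reads.

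The cells were TSU-Pr1, a line from a human bladder carcinoma. Per the series title they stably expressed the transcription factor KLF5, and the protocol calls them K12. They were transfected with siRNA against CINP (siCINP), which encodes an interaction partner of cyclin-dependent kinase 2, or with a control siRNA (siCtrl), and total RNA was taken 48 h later from cells in 8% serum. By that title both groups carried the KLF5 construct, and K12 is taken here to be that line. Both groups were transfected, there was no untransfected group, and the siRNA sequences were not used here. Each group had 1 library, of 10314195 reads for siCINP and 10365289 for siCtrl, so no difference could be checked in a replicate and no p-value was computed.

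CINP had 53 reads in siCINP and 203 in siCtrl, a 4.02-fold lower level (log2 ratio -2.01, 95% counting interval -2.47 to -1.56). KLF5 had 4077 reads in siCINP and 4013 in siCtrl. KRT8 and KRT18, keratins of simple epithelium, were at 1624 and 1942 FPKM in siCINP and at 1552 and 1772 FPKM in siCtrl, where FPKM is a level scaled for gene length and library size. KRT19, another such keratin, had 44 reads in siCINP and 20 in siCtrl (log2 ratio 1.07, 0.28 to 1.91). The epithelial adhesion genes EPCAM and CDH1 were low, with 15 and 75 reads in siCINP and 4 and 46 in siCtrl (log2 ratios 1.84, 0.19 to 3.89, and 0.64, 0.09 to 1.20).

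Interferons are secreted proteins that bind cell-surface receptors and activate the kinases JAK1 and TYK2. These phosphorylate STAT proteins, among them STAT2, which acts with IRF9 in the factor ISGF3. ISGF3 binds interferon-stimulated response elements in promoters of genes that restrict viruses, and many of these genes also have some expression in cells to which no interferon was added. The effectors block translation of foreign RNA, membrane fusion or replication, and some, such as USP18, damp the pathway itself.

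The effectors were higher in siCINP as a group, while most of the STAT and IRF factors differed little. Abundance differed along with role, and its part was not tested. The 4 factors each had a mean of both libraries above 163.5 reads. The 15 members above that level, these factors included, had a median log2 ratio of 0.20. The PARP group, at a median log2 ratio of 0.20, lay near the STAT and IRF factors, at 0.18. The members were chosen with earlier results of these data known, so the counts below describe the set and are no independent result. Of the 31 compared members, 8 were at least 2-fold higher with a counting interval that excluded 0, namely MX1, IFI44, IFIT2, IFI6, ISG15, IFIT1, HERC5 and SAMD9L. Over all 13076 compared genes, 1.69% met that rule. None of the 31 members was at least 2-fold lower, where 1.41% of all compared genes were. The interval lay above 0 in 19 of the 31 members and below 0 in 0, beside 18.6% of all compared genes above and 23.1% below. The median log2 ratio was 0.55 over the 31 members, with quartiles of 0.18 and 1.01, and -0.01 over all compared genes, with quartiles of -0.21 and 0.20. Intervals compare these 2 libraries and cover counting error only. MX1, IFITM2, RSAD2 and ISG20 met the minimum of 20 reads in siCINP only, so their ratios above 0 follow in part from the minimum, and none of the members met it in siCtrl only. With a minimum set on the mean of both libraries, 30 members were compared and 8 were at least 2-fold higher, beside 1.27% of 12760 genes. In RNA from a whole culture, a small difference in every cell cannot be told apart from a large one in a few cells.

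**Figure D1:**
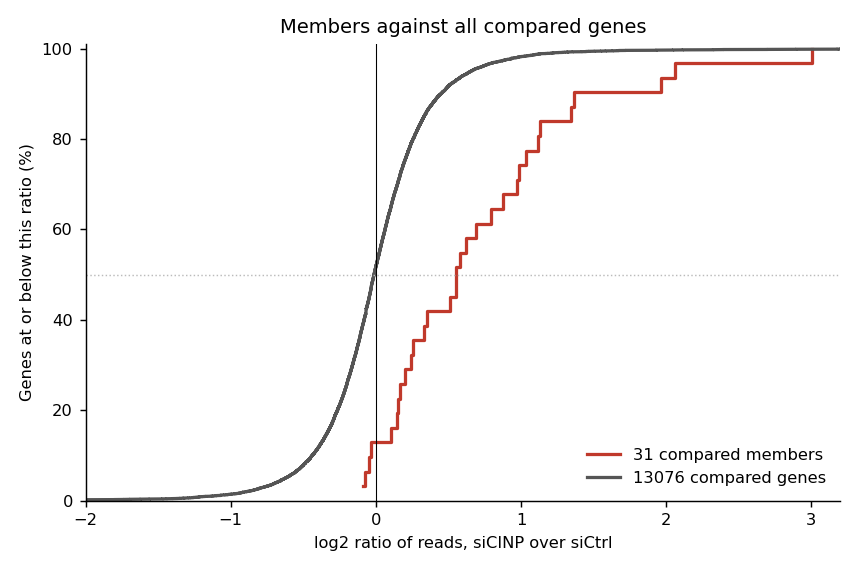
Cumulative share of genes (vertical axis, percent) by the log2 ratio of reads in siCINP over siCtrl (horizontal axis), for the 31 compared members in red and all 13076 compared genes in grey. The median of the members lies at 0.55 and that of all compared genes at -0.01.

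Most members were of low abundance, and the share of genes past a 2-fold rule depends on abundance. Of the 31 compared members, 28 had a mean of under 500 reads, and all 8 that were at least 2-fold higher were among those. Of the 8057 compared genes under that limit, 205 (2.54%) were at least 2-fold higher. The 15 members with a mean above 163.5 reads had a median log2 ratio of 0.20, and 2 of them were at least 2-fold higher. The 15 below it had a median of 0.79, and 6 were at least 2-fold higher. Among all compared genes the corresponding shares were 0.443% above 163.5 reads and 4.26% below. Intervals lay above 0 in 9 of the 15 members above that level and in 9 of the 15 below it. Among all compared genes they lay above 0 in 21.4% above that level and in 12.7% below.

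RefSeq promoter windows of GRCh38.p14, from 250 bases before to 50 after each annotated start, were present for 30 of the 37 members, the other 7 being IFIT2, USP18, IFITM2, MX2, TRIM22, PARP10 and IRF7. The windows were searched on both strands for the core of the interferon-stimulated response element, which reads GAAA, any 2 bases and GAAA, and for a longer form, the core followed by CT. On the other strand the core reads TTTC, any 2 bases and TTTC. The core was present in 22 of the 30 members (73.3%) and in 4.38% of all 27305 genes with a window, and the longer form in 15 of the 30 and in 0.322% of all genes. Interferon-stimulated genes are known for this element, so its frequency in the set describes the members and is no independent result. A match is a match of letters and not a shown site. The stretches below are shown because they come from the 6 members at least 2-fold higher in siCINP that hold the core before a start, with IFIT3, IFITM3 and PARP14, which hold it too and had log2 ratios between -0.09 and 0.17. Each runs 5′ to 3′ on the gene's strand, and capitals mark the core in either orientation.

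IFIT1: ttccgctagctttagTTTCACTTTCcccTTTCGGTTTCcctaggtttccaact
ISG15: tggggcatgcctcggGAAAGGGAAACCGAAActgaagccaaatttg
HERC5: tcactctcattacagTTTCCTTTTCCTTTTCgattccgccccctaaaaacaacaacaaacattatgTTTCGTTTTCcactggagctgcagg
IFI6: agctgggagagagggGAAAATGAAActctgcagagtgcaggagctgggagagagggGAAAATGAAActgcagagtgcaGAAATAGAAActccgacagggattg
IFI44: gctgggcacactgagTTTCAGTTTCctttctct
MX1: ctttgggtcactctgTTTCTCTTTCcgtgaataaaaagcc
IFIT3: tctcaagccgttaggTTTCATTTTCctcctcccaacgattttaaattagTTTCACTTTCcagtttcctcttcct
IFITM3: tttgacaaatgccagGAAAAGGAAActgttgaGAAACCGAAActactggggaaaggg
PARP14: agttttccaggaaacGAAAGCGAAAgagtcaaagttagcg

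These stretches lie at chr10:89392492-89392544 on the + strand for IFIT1, chr1:1013369-1013414 on the + strand for ISG15 and chr4:88456979-88457069 on the + strand for HERC5. Those of IFI6 and IFI44 lie at chr1:27672261-27672363 on the - strand and chr1:78649756-78649788 on the + strand, and that of MX1 at chr21:41431839-41431878 on the + strand, before the third of its 3 annotated starts. Those of IFIT3, IFITM3 and PARP14 lie at chr10:89327826-89327899 on the + strand, chr11:320871-320927 on the - strand and chr3:122680795-122680834 on the + strand. In ISG15 and in the first part of the HERC5 stretch 2 overlapping cores follow each other, and the 3 cores of IFI6 are spread over positions -156 to -84 from the start.

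**Figure D2:**
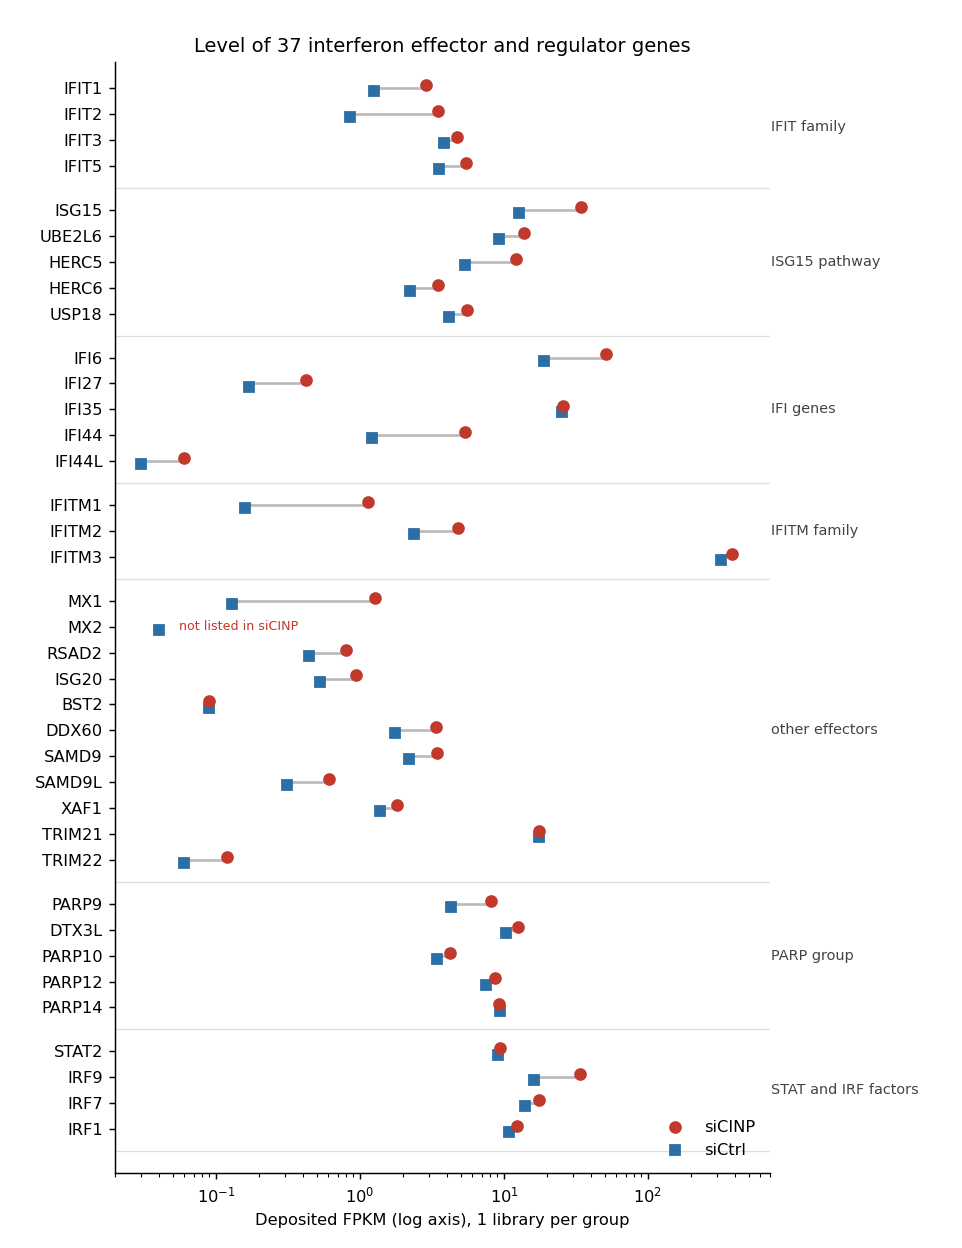
Deposited FPKM on a log axis for all 37 members in siCINP (red circles) and siCtrl (blue squares), grouped by role, with 1 library per group. IFITM3 is the most abundant member in both libraries, at 381 FPKM in siCINP and 321 in siCtrl, and MX2 is not listed in siCINP.

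The IFIT proteins bind foreign or incompletely capped RNA and hold back its translation. IFIT2 had 127 reads (3.49 FPKM) in siCINP and 31 reads (0.85 FPKM) in siCtrl, a 3.91-fold higher level (log2 ratio 1.97, interval 1.39 to 2.58). IFIT1, the family member that binds RNA lacking cap methylation, had 133 reads (2.89 FPKM) in siCINP and 58 (1.25 FPKM) in siCtrl (log2 ratio 1.13, 0.67 to 1.60). IFIT5 had 227 reads in siCINP and 148 in siCtrl, a log2 ratio of 0.55 (0.24 to 0.86), under the 2-fold rule. IFIT3, which binds and stabilises IFIT1, had 121 reads in siCINP and 104 in siCtrl (log2 ratio 0.15, -0.24 to 0.54), and at this depth a difference could not be detected. Per length, IFIT5 and IFIT3 were the most abundant of the 4 in both libraries, at 5.42 and 4.68 FPKM in siCINP and 3.51 and 3.85 FPKM in siCtrl, and IFIT2 was the lowest in siCtrl.

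Some differences within the family were larger than counting error for the pair taken alone. The siCINP to siCtrl ratio of IFIT2 was 3.51 times that of IFIT3 (exact conditional interval 2.15 to 5.84), and that of IFIT1 was 1.97 times that of IFIT3 (1.29 to 3.02). Such a ratio of ratios does not depend on library scaling. The pairs of genes compared here and below were picked by hand, and their intervals are not adjusted for the number of pairs. The windows at both annotated starts of IFIT3 hold 2 cores each, the first pair shown above, and the IFIT1 window also holds 2. The expected counts of IFIT1 and IFIT3 were fractional, which marks reads assigned by estimate, while those of IFIT2 and IFIT5 were whole.

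ISG15 is a ubiquitin-like protein that interferon-treated cells attach to other proteins. Its transcript had 232 reads (34.1 FPKM) in siCINP and 87 (12.7 FPKM) in siCtrl, a 2.54-fold higher level (log2 ratio 1.35, 0.99 to 1.72). HERC5, the main human ligase for ISG15, had 445 reads (12.2 FPKM) in siCINP and 196 (5.34 FPKM) in siCtrl, a 2.17-fold higher level (log2 ratio 1.11, 0.87 to 1.36). The modifier and its ligase were thus both past the 2-fold rule, with whole expected counts in both libraries.

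The other enzymes of ISG15 conjugation were higher by less or not detectably so. UBE2L6, the conjugating enzyme, had 182 reads in siCINP and 122 in siCtrl (log2 ratio 0.51, 0.17 to 0.85). HERC6, a relative of HERC5 that serves as the main ISG15 ligase in mice, had 140 reads in siCINP and 91 in siCtrl (0.55, 0.16 to 0.95). USP18 removes ISG15 from proteins and also binds the interferon receptor chain IFNAR2 to damp signalling. It had 116 reads in siCINP and 88 in siCtrl (0.33, -0.08 to 0.75), and reads shared with its close copy USP41 could make the value uncertain. UBA7, the activating enzyme of the pathway, was almost silent, with 7 reads in siCINP and 6 in siCtrl. The ratio of ISG15 was 2.02 times that of USP18 (1.37 to 2.98), and that of HERC5 was 1.48 times that of HERC6 (1.06 to 2.04). Summed over the 5 members, the pathway had 1115 reads in siCINP and 584 in siCtrl (log2 ratio 0.86, 0.72 to 1.01).

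The genes named IFI are grouped here by their name, for induction by interferon. IFI6, a small hydrophobic protein that counters flavivirus replication at the endoplasmic reticulum, had 435 reads (51.5 FPKM) in siCINP and 161 (19.0 FPKM) in siCtrl. Its log2 ratio was 1.37 (1.10 to 1.64). Per length it came after IFITM3 in siCINP, and after IFITM3 and IFI35 in siCtrl. IFI44, a cytoplasmic protein, had 96 reads (5.37 FPKM) in siCINP and 22 (1.22 FPKM) in siCtrl, a 4.16-fold higher level (log2 ratio 2.06, 1.38 to 2.80). IFI35 had 329 reads (25.7 FPKM) in siCINP and 325 (25.2 FPKM) in siCtrl (log2 ratio -0.05, -0.28 to 0.18). The ratio of IFI6 was 2.67 times that of IFI35 (2.09 to 3.41) and that of IFI44 was 4.30 times that of IFI35 (2.61 to 7.37). IFI44L, the neighbour and relative of IFI44, had 4 reads in siCINP and 2 in siCtrl, and IFI27 had 3 in siCINP and 1 in siCtrl. At this depth no difference in those was detectable.

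The IFITM proteins sit in cell and endosome membranes and hinder virus fusion. IFITM3 was by far the most abundant member, with 2561 reads (381 FPKM) in siCINP and 2172 (321 FPKM) in siCtrl, 24.7% of all member reads in siCINP and 28.0% in siCtrl. Its log2 ratio was 0.17 with a narrow interval of 0.09 to 0.25. IFITM2 had 35 reads (4.82 FPKM) in siCINP and 17 (2.36 FPKM) in siCtrl (log2 ratio 0.97, 0.10 to 1.90), just under the 2-fold rule. IFITM1, the plasma membrane form, had 8 reads in siCINP and 1 in siCtrl, which is under the minimum of reads (log2 ratio 2.93, 0.03 to 8.40). The 3 genes are close copies with fractional counts, so the values of IFITM1 and IFITM2 are uncertain beside IFITM3. Their sum was 2604 reads in siCINP and 2190 in siCtrl (log2 ratio 0.18, 0.10 to 0.26).

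MX1, a dynamin-like GTPase that traps viral nucleocapsids, was nearly silent in siCtrl. It had 42 reads (1.28 FPKM) in siCINP and 5 (0.13 FPKM) in siCtrl, an 8.01-fold higher level (log2 ratio 3.0, 1.67 to 4.70). It met the minimum of reads in siCINP only. MX2, its relative that restricts HIV, had 0 reads in siCINP and 1 in siCtrl. Both had fractional counts, and their sum of 42 reads in siCINP and 6 in siCtrl gave a log2 ratio of 2.74 (1.5 to 4.26).

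Among the remaining effectors, 1 more passed the 2-fold rule. SAMD9L had 45 reads in siCINP and 21 in siCtrl (log2 ratio 1.03, 0.25 to 1.85), and its neighbour and relative SAMD9, with which it restricts poxviruses, had 244 reads in siCINP and 156 in siCtrl (0.58, 0.28 to 0.88). DDX60, a helicase of antiviral defence, had 215 reads in siCINP and 112 in siCtrl (log2 ratio 0.87, 0.54 to 1.22). SAMD9L and DDX60 had fractional counts.

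For 4 low or moderate effectors the interval included 0. RSAD2, the radical-SAM enzyme viperin, had 29 reads in siCINP and 16 in siCtrl (log2 ratio 0.79, -0.14 to 1.77), and ISG20, an exonuclease, had 21 in siCINP and 13 in siCtrl (0.62, -0.44 to 1.74). XAF1, which binds the apoptosis inhibitor XIAP, had 67 reads in siCINP and 50 in siCtrl (0.35, -0.20 to 0.91). TRIM21, a cytosolic antibody receptor and ubiquitin ligase, was level, with 353 reads in siCINP and 354 in siCtrl (-0.07, -0.29 to 0.14). Another pair of restriction factors was nearly silent: BST2 (tetherin) had 1 read in each library, and TRIM22 had 4 in siCINP and 2 in siCtrl.

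PARP9 and DTX3L form a complex of an ADP-ribosyltransferase relative and a ubiquitin ligase that acts in interferon signalling and DNA repair, and their genes lie head to head. PARP9 had 328 reads (8.12 FPKM) in siCINP and 194 (4.30 FPKM) in siCtrl, a log2 ratio of 0.69 (0.43 to 0.95). DTX3L had 753 reads (12.5 FPKM) in siCINP and 626 (10.4 FPKM) in siCtrl, a log2 ratio of 0.20 (0.04 to 0.35). The ratio of PARP9 was 1.41 times that of DTX3L (1.14 to 1.74), and both had fractional counts. PARP14, a macrodomain ADP-ribosyltransferase from the same gene cluster, was level at 744 reads in siCINP and 754 in siCtrl (-0.09, -0.24 to 0.06). PARP10, a mono-ADP-ribosyltransferase, had 156 reads in siCINP and 126 in siCtrl (0.24, -0.11 to 0.59), and PARP12, which restricts alphaviruses, 346 in siCINP and 298 in siCtrl (0.15, -0.08 to 0.38). None of the 5 passed the 2-fold rule, by which 1.69% of all compared genes were higher and 1.41% lower, so few or none of 5 would be counted.

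IRF9 stood apart from the other transcription factors. This DNA-binding subunit of ISGF3 had 587 reads (33.7 FPKM) in siCINP and 283 (16.2 FPKM) in siCtrl, a 1.98-fold higher level (log2 ratio 0.98, 0.78 to 1.19), with whole counts. This was just under the 2-fold rule, which it passed with total-count scaling (log2 ratio 1.06). STAT2, its partner in ISGF3, had 444 reads (9.34 FPKM) in siCINP and 434 (9.06 FPKM) in siCtrl (log2 ratio -0.04, -0.23 to 0.16). The ratio of IRF9 was 2.03 times that of STAT2 (1.66 to 2.47) and 1.66 times that of IRF7 (1.34 to 2.06).

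IRF7, the factor that amplifies interferon-alpha transcription, had 360 reads (17.6 FPKM) in siCINP and 288 (14.0 FPKM) in siCtrl (log2 ratio 0.25, 0.03 to 0.48). IRF1, an early interferon-gamma target that activates several of the effectors above, had 456 reads in siCINP and 404 in siCtrl (0.11, -0.09 to 0.30). The window of IRF9 holds no response element core but a gamma-activated site, TTCNNNGAA, a motif bound by STAT dimers, shown with the match in capitals.

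IRF9: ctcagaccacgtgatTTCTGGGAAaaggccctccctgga

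This stretch lies at chr14:24161187-24161225 on the + strand, positions -78 to -40 from the start. Matches of TTCNNNGAA were present in 9 of the 30 members with a window, IRF1 and IFI35 among them, and in 9.38% of all genes. The motif is its own reverse complement and overlaps the response element core in IFI27, IFITM1, MX1 and BST2. IFI35, which holds it, was level.

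**Figure D3:**
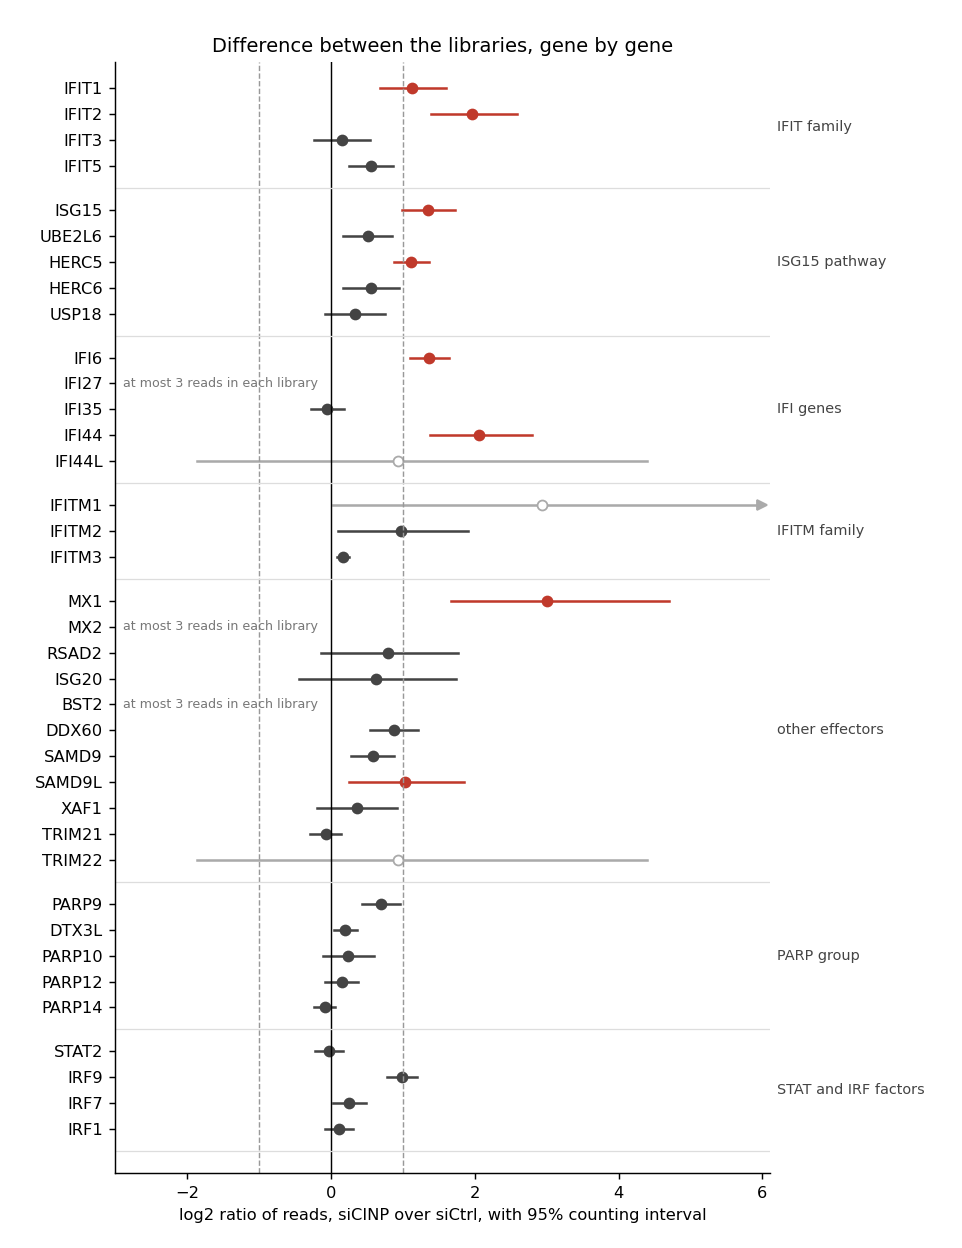
Log2 ratio of reads in siCINP over siCtrl for each member, with its 95% counting interval, grouped by role. Red marks the 8 compared members at least 2-fold higher, open grey circles mark members under 20 reads in both libraries, the arrow marks an interval that runs past the axis, and dashed lines mark 2-fold.

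Some role groups differed from each other by more than counting error. Summed reads of the IFIT family were 608 in siCINP and 341 in siCtrl (log2 ratio 0.77, 0.57 to 0.96), those of the PARP group 2327 in siCINP and 1998 in siCtrl (0.15, 0.06 to 0.24), and those of the STAT and IRF factors 1847 in siCINP and 1409 in siCtrl (0.32, 0.22 to 0.42). Relative to the STAT and IRF factors, the siCINP to siCtrl ratio was 1.46 times as large for the ISG15 pathway (1.29 to 1.65) and 1.36 times for the IFIT family (1.17 to 1.58). It was 0.907 times as large for the IFITM family (0.828 to 0.993) and 0.889 times for the PARP group (0.810 to 0.975). The IFIT family and the ISG15 pathway were within counting error of each other, at a ratio of 0.934 (0.788 to 1.11), and so were the PARP group and the IFITM family, at 0.980 (0.901 to 1.06). A sum follows its most abundant genes, such as IFITM3 in the IFITM family. The sums of the STAT and IRF factors hold IRF9, with 587 reads in siCINP and 283 in siCtrl. Ratios relative to the factors carry that gene, and the medians do not place the PARP group or the IFITM family below the factors. By medians of compared members the order was 1.37 for the IFI genes, 0.84 for the IFIT family, 0.71 for the other effectors, 0.57 for the IFITM family, 0.55 for the ISG15 pathway, 0.20 for the PARP group and 0.18 for the factors.

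Over all 37 members, reads summed to 10389 in siCINP (0.101% of the library) and 7764 in siCtrl (0.0749%), a log2 ratio of 0.35 (0.31 to 0.39). Without IFITM3 the sums were 7828 reads in siCINP and 5592 in siCtrl (0.42, 0.37 to 0.47). In FPKM the members summed to 701 in siCINP and 522 in siCtrl.

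The ratios were then set beside the promoter motif. The 18 compared members with a core in the window had a median log2 ratio of 0.66, with a range of -0.09 to 3.0, and 6 of them were at least 2-fold higher. The 8 without it had a median of 0.43, with a range of -0.05 to 1.03, and SAMD9L was the 1 that was at least 2-fold higher. The 5 with no window, IFIT2 and IFITM2 among them, had a median of 0.33. The 12 compared members with the longer form had a median of 0.99, a range of 0.15 to 3.0, and 6 at least 2-fold higher. Over all compared genes 1.69% were at least 2-fold higher. Of the 385 compared genes with the core, members included, 17 (4.42%) were. Of the 4 compared members with a ratio below 0, PARP14 and TRIM21 held the core without the longer form and IFI35 and STAT2 held neither, while IFIT3, IFITM3 and DTX3L held the longer form with log2 ratios of 0.15, 0.17 and 0.20.

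Outside the set, genes with the motif had medians near that of all compared genes. The 367 compared genes that hold the core and are no members had a median log2 ratio of 0.06, and 11 of them (3.0%) were at least 2-fold higher, beside 135 of 9997 compared genes without the core (1.35%). Of the 21 that hold the longer form and are no members, 0 were at least 2-fold higher, where 1.69% of all compared genes were, so that few or none of 21 would be counted at that share. The median of the 21 was 0.04, and they ranged from -1.23 for SPMIP4, which was at least 2-fold lower, to 0.88 for ZNF716. EIF2AK2, the kinase PKR, and B2M, the light chain of MHC class I, are 2 of those 21, with log2 ratios of 0.24 (0.12 to 0.37) and 0.02 (-0.06 to 0.09).

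**Figure D4:**
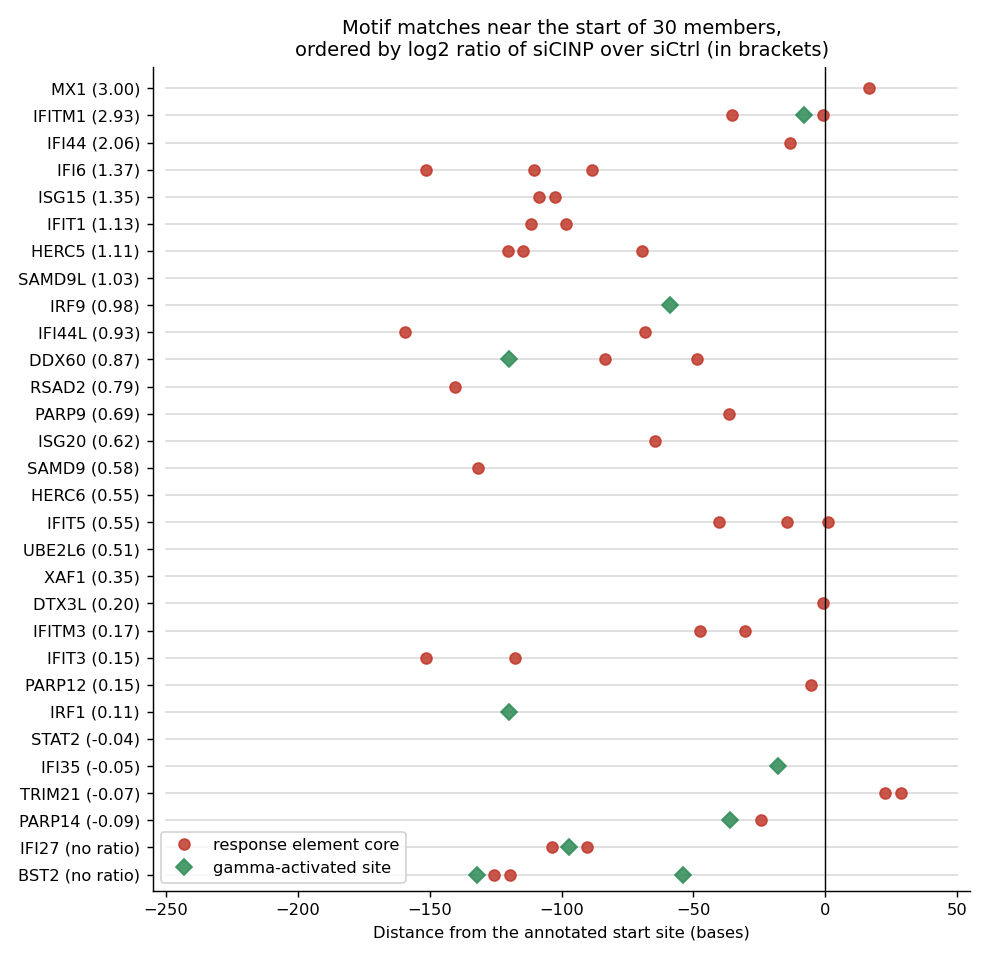
Position of matches to the response element core (red circles) and the gamma-activated site (green diamonds) relative to the annotated start (horizontal axis, bases) for the 30 members with a window, ordered from high to low log2 ratio of siCINP over siCtrl. One window is drawn per gene, the first with a match. The 2 members with at most 3 reads in each library stand last, and SAMD9L is the only one of the 7 drawn genes at least 2-fold higher among compared members that has no core.

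Upstream of the effectors, transcripts of interferons were nearly absent. Intervals lay above 0 for none of the receptors and kinases, and below 0 for 2 receptors and 1 kinase. Over all compared genes 18.6% of intervals lay above 0 and 23.1% below, so few of 9 genes would be counted on either side. Of 9 interferon genes, IFNG and IFNL2 had 1 read each in siCINP and 0 in siCtrl, and IFNB1, IFNA1, IFNA2, IFNE, IFNK, IFNL1 and IFNL3 had 0 in both libraries, a count that allows up to 0.283 CPM, reads scaled to library size, in siCINP and 0.297 CPM in siCtrl. IFNAR1, a chain of the type I receptor, had 741 reads in siCINP and 1062 in siCtrl (log2 ratio -0.59, -0.72 to -0.45), while its partner IFNAR2 had 329 in siCINP and 324 in siCtrl (-0.05, -0.27 to 0.18). The type II receptor chains IFNGR1 and IFNGR2 were at -0.15 (-0.40 to 0.09) and -0.23 (-0.41 to -0.05), and IFNLR1 and IL10RB, chains of the type III receptor, at -0.28 (-0.76 to 0.20) and 0.16 (-0.03 to 0.35). The kinases JAK1, TYK2 and JAK2 were at -0.13 (-0.20 to -0.05), -0.12 (-0.24 to 0.01) and 0.02 (-0.32 to 0.37). None of these 9 receptor and kinase genes passed the 2-fold rule. With 1.69% of all compared genes higher by it and 1.41% lower, few or none of 9 would be counted.

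Of the other STAT genes, STAT3 and STAT5B, which serve cytokine and growth factor receptors, had log2 ratios of 0.56 (0.47 to 0.64) and 0.44 (0.28 to 0.60). STAT6, the factor of interleukin-4 signalling, had 20 reads in siCINP and 7 in siCtrl (1.45, 0.15 to 2.93), and so met the minimum of reads in siCINP only. STAT5A had 2 reads in siCINP and 0 in siCtrl, and STAT4 had 0 in both. Of the other IRF genes, IRF2, which opposes IRF1 at response elements, had 201 reads in siCINP and 306 in siCtrl (-0.67, -0.94 to -0.41), and IRF3, which triggers interferon-beta transcription, 775 in siCINP and 691 in siCtrl (0.10, -0.05 to 0.25). IRF5 had 9 reads in siCINP and 1 in siCtrl, IRF4 had 1 in siCINP and 3 in siCtrl, and IRF8 had 0 in both.

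Of 12 negative regulators, 11 were compared, with 1 at least 2-fold lower, none higher by that rule and a median of -0.07. The shares of all compared genes were 1.41% lower and 1.69% higher. SOCS1, an inhibitor of JAK kinases that interferon induces, had 13 reads in siCINP and 34 in siCtrl (log2 ratio -1.46, -2.50 to -0.50), and SOCS3, its relative in interleukin-6 signalling, had 304 in siCINP and 205 in siCtrl (0.50, 0.24 to 0.76). SOCS1 met the minimum of reads in siCtrl only, so its ratio below 0 follows in part from the minimum. The phosphatases PTPN11 and PTPN2 were at -0.23 (-0.31 to -0.14) and -0.24 (-0.44 to -0.04).

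**Figure D5:**
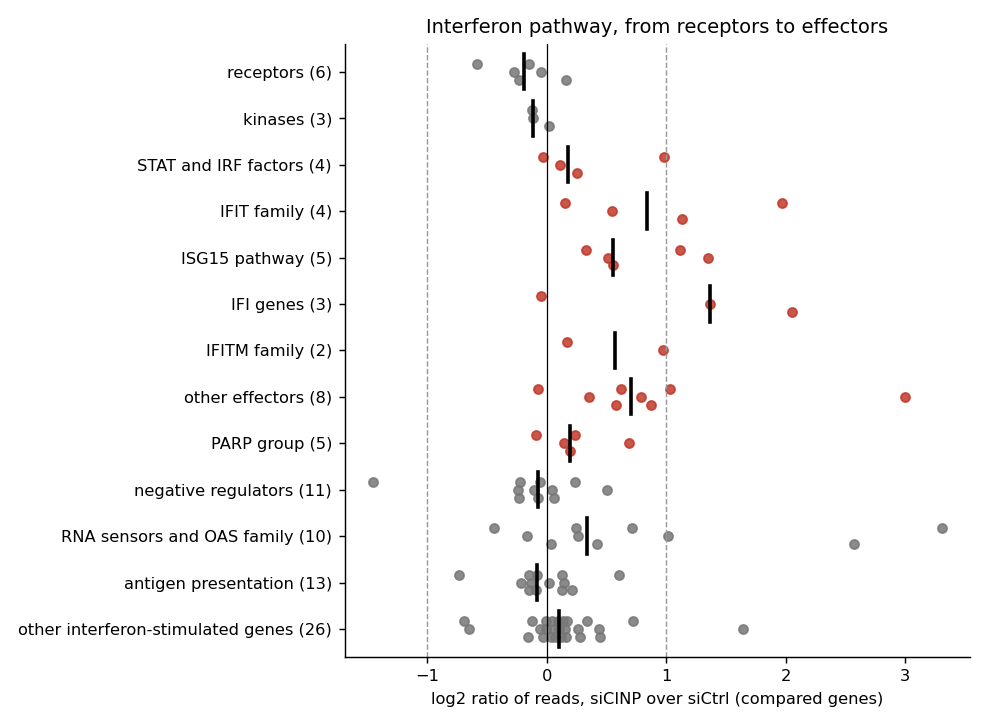
Log2 ratio of reads in siCINP over siCtrl for compared genes of the interferon pathway, 1 point per gene, with the member groups in red, the other lists in grey, black bars at the medians and the number of genes in brackets. Receptors and kinases lie between -0.59 and 0.16, and the effector groups reach 3.0.

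Other interferon-stimulated genes differed among themselves. Of 26 compared from a list of 36, 1 was at least 2-fold higher and none 2-fold lower, the median was 0.10, and 11 intervals lay above 0 and 2 below. Among all compared genes 1.69% were at least 2-fold higher and 1.41% lower, with 18.6% of intervals above 0 and 23.1% below. IFI16, a nuclear DNA sensor, had 85 reads in siCINP and 26 in siCtrl (log2 ratio 1.64, 0.99 to 2.33), SP110, a nuclear body protein, was at 0.72 (0.49 to 0.96), and APOL6 and TMEM140 were at -0.65 (-0.83 to -0.47) and -0.70 (-0.97 to -0.42). Of 10 compared RNA sensor and OAS genes, 3 were at least 2-fold higher and the median was 0.34. The 2-5A synthetases OAS2 and OAS1 were at 3.31 (2.00 to 4.99) and 1.02 (0.46 to 1.60), their relative OASL at 2.57 (1.54 to 3.77) and the RNA helicase RIGI at 0.72 (0.51 to 0.92). OAS2, with 52 reads in siCINP and 5 in siCtrl, and OASL, with 56 in siCINP and 9 in siCtrl, met the minimum of reads in siCINP only.

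None of the 13 compared antigen presentation genes passed the 2-fold rule in either direction, and their median was -0.08. By that rule 1.69% of all compared genes were higher and 1.41% lower, so few or none of 13 would be counted at those shares. The peptide transporter chain TAP2 and the immunoproteasome subunit PSMB9 were at 0.21 (0.10 to 0.32) and 0.61 (0.09 to 1.14), and the non-classical class I heavy chain HLA-E was at -0.13 (-0.23 to -0.04). Of the 12 other PARP genes, 0 passed the 2-fold rule in either direction, a count near those shares, and the median was 0.09. PARP2 and TIPARP were at -0.79 (-0.99 to -0.60) and -0.61 (-0.73 to -0.49), TNKS was at -0.27 (-0.44 to -0.11) and PARP3 at 0.45 (0.08 to 0.83).

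Markers of leukocytes, which also express these effectors, were low in both libraries. The 7 markers summed to 239 reads in siCINP and 215 in siCtrl (log2 ratio 0.08, -0.19 to 0.36), most of them from CD68 and LYZ, while CD3E had 0 reads in both and PTPRC 6 in siCINP and 8 in siCtrl. The 3 endothelial markers summed to 75 reads in siCINP and 46 in siCtrl (0.64, 0.09 to 1.20), with 3 reads of VWF in each. Their part in the result was not tested. VIM, the mesenchymal intermediate filament vimentin, had 7167 reads in siCINP and 19204 in siCtrl (-1.49, -1.53 to -1.45).

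An earlier scan of these tables had singled out 2 pairs of 3′ UTR heptamers after the values were seen. The pair TGCAAGA and GCAAGAA was carried by 5 of the 31 compared members (16.1%), namely IFIT1, HERC6, USP18, PARP9 and PARP14, and by 18.4% of 11671 compared genes with an annotated 3′ UTR. The pair TCGGAGA and CGGAGAA was carried by 0 of the 31 and by 4.22% of those genes. IFNAR1 carried heptamers of both pairs. Their part in these ratios was not tested.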

How the data were processed

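Total RNA of 2 TSU-Pr1 cultures, 1 library for siCINP and 1 for siCtrl, was sequenced on a BGISEQ-500, per the series design text. The authors deposited a gene length, an expected count (estimated reads, not normalised) and an FPKM value (scaled for length and library) for each gene, per the file headers. Bowtie2, HISAT and hg19 stand in the submitters' processing notes, and the sources used here do not give the counting tool, its annotation or its use of strand.

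Rounded expected counts were scaled by TMM (edgeR 4.0.16, R 4.3.3; factors 1.03 for siCINP and 0.974 for siCtrl). The log2 ratio of siCINP over siCtrl was given a 95% interval by the exact Clopper-Pearson method on how a gene's reads divide between the libraries (scipy 1.17.1); ratios of ratios were conditional odds ratios with exact 95% intervals. A count of 0 stood at 3 reads per library, and no ratio was given where both libraries had at most 3. Genes with 20 or more reads in either library were compared. The size rule was 2-fold with an interval that excludes 0, which is no test of the conditions. A count was called whole within 0.005. Of 19052 identifiers, 18971 matched a RefSeq symbol of GRCh38.p14; that build served for names and promoter windows only, and 3′ UTRs came from GENCODE 29.

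The members and lists were chosen with earlier results of these data known. Named genes are all 37 members, CINP, KLF5, every gene of a pathway list of up to 9 genes, and of longer lists the 4 with the largest distance between 0 and the closer interval end, plus the marker genes. Some genes that this rule names are not reported here. B2M, EIF2AK2, SPMIP4 and ZNF716, in the motif comparison, were named after their values were seen. Alternatives were other scalings (total count, upper quartile, DESeq2 1.42.0), deposited FPKM with pseudocounts of 0.1 and 1, thinning, other minimums and size rules, and whole counts only. The method was also run on simulated counts that varied by counting error alone, so that run cannot test variation between cultures.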

Additional observations from a re-analysis of the deposited data

How the results depend on the processing

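With 1 library per group no replicate could be left out, and scaling error is outside the intervals. No paired analysis was possible because each group has 1 library. Of 204 alternative values of 34 members under other scalings, FPKM and thinning, 202 stayed inside the member's counting interval. With an FPKM pseudocount of 1, IFIT2 was at 1.28 and MX1 at 1.01. No member whose interval excluded 0 changed sign. IFI35, TRIM21 and STAT2, whose intervals included 0, went from just below 0 to just above it with total-count scaling. The 8 members at least 2-fold higher were 7 to 10 under every scaling, FPKM and thinning setting; IRF9 passed with total-count, upper quartile and DESeq2 scaling and with FPKM, IFITM2 with total-count and upper quartile scaling and with an FPKM pseudocount of 0.1, while SAMD9L failed with FPKM and IFIT1 with an FPKM pseudocount of 1. They were 5 with a minimum of 100 reads, 4 with whole counts only (IFIT2, ISG15, HERC5 and IFI44) and 4 with an interval wholly beyond 2-fold (MX1, IFI44, IFIT2 and IFI6). No setting gave a member at least 2-fold lower. The FPKM settings had no counting interval, so their counts, here and over all compared genes, follow the 2-fold size and the minimum of reads alone. The mean over members was 0.70 and their median lay between 0.34 (FPKM pseudocount of 1) and 0.63 (total counts), where total-count scaling moved the median of all compared genes to 0.06. With whole counts only, the medians of the IFIT family, the IFI genes and the STAT and IRF factors were 1.26, 1.0 and 0.62; that of the IFI genes was 0.66 with a minimum of 100 reads and 1.71 without its most distant member. The median of the IFITM family was 0.17 with a minimum of 50 or 100 reads, in place of 0.57, and that of the other effectors 0.25 with whole counts only, in place of 0.71, so the order of the group medians depends on these settings.

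Over all compared genes, 221 were higher and 184 lower. These were 83 and 72 with an FPKM pseudocount of 1, 102 and 117 with a minimum of 50 reads, 62 and 98 with one of 100, 119 and 95 with whole counts only, 662 and 638 with a 1.5-fold rule, and 60 and 73 with an interval wholly beyond 2-fold; with no minimum 339 were higher. Total-count scaling gave 296 and 149. Genes under a mean of 500 reads, a limit chosen after seeing the data, held 205 and 134, and those with a mean of 20 or more reads, a minimum also chosen after seeing the data, 162 and 143.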

Other observations

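The deposited length of a gene differed between the tables for some members. Ratios by FPKM carry that length and the deposited library scaling, both of which differ from the ratios by reads. For PARP9 it was 3885 bases in siCINP and 4310 in siCtrl, and its log2 ratio was 0.92 by FPKM and 0.69 by reads. MX1 had 3178 bases in siCINP and 3414 in siCtrl, with a log2 ratio of 3.30 by FPKM and 3.0 by reads. SAMD9L had 7116 bases in siCINP and 6620 in siCtrl, with 0.98 by FPKM and 1.03 by reads.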
